A study of Mus musculus with 12 samples.

Results

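Cardiac myosin genes, 5 in all and listed by name, were followed through 12 libraries of adult mouse heart: the heavy chains Myh6, Myh7 and Myh7b and the ventricular light chains Myl2 and Myl3. All 5 were found among the 55401 genes listed per library, and all 5 passed the filter on low counts that left 6596 genes for testing. The hearts were wild type (WT) or lacked Rpl3l on both alleles (Rpl3l-/-, here KO). Rpl3l encodes a striated-muscle form of the large-subunit ribosomal protein made by Rpl3. Input libraries came from total RNA of heart homogenates extracted with TRIzol. IP libraries came from ribosomes of cycloheximide-treated hearts that were pulled down with an antibody against the HA tag, with RNA purified on columns. Each of the 4 groups (WT Input, KO Input, WT IP, KO IP) held 3 biological replicates, sequenced as poly(A)-selected nanopore direct cDNA. The labels leave unsaid which cells carry the tag, how the knockout was made and whether Input and IP came from the same hearts, and extraction method and fraction change together.

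Muscle myosin is a hexamer of a pair of heavy chains, which carry the ATPase motor and the filament-forming rod, and of light chains bound to the lever arm of each head. In the adult mouse ventricle the main heavy chain is the fast alpha chain, encoded by Myh6, while the slower beta chain of Myh7 predominates before birth and is known to return under haemodynamic load and low thyroid hormone. Myl2 encodes the regulatory and Myl3 the essential light chain of the ventricle. Myh7b is an older relative of both heavy chain genes. In mammalian heart its primary transcript is known mainly as the source of a microRNA, with splicing that largely prevents production of the protein.

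Myh6 (ENSMUSG00000040752.16) lies at chr14:54941921-54966927 on the minus strand of GRCm38 and Myh7 (ENSMUSG00000053093.16) at chr14:54970684-54994626 on the same strand, with 3756 bases between them. Myh7b (ENSMUSG00000074652.3) lies at chr2:155611212-155634307, Myl2 (ENSMUSG00000013936.12) at chr5:122100951-122113472 and Myl3 (ENSMUSG00000059741.13) at chr9:110741861-110769798, all on the plus strand. The transcripts used for length measure 6113 bases for Myh6, 6230 for Myh7, 6163 for Myh7b, 889 for Myl2 and 937 for Myl3. The coding sequences of Myh6 and Myh7 were identical at 91.8% of 5800 aligned bases, with a longest identical stretch of 245 bases. Myh7b was more distant, with 72.8% identity to Myh6 and 73.1% to Myh7, and Myl2 and Myl3 shared 64.3% of 456 aligned bases. The sources used here do not give how reads were divided between similar genes. The pair below is shown because it is the ungapped 60-base coding window, within 1 exon of each gene, where Myh6 and Myh7 differ most. The untranslated regions were not compared. Capitals mark the 24 positions that differ. The Myh6 window is in exon 25 (chr14:54952277-54952336, minus strand) and the Myh7 window in exon 27 (chr14:54980352-54980411, minus strand), from GENCODE M21 transcripts.
Myh6: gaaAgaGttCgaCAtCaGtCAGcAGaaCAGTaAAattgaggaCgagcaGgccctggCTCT
Myh7: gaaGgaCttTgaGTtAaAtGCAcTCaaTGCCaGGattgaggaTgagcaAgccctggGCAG

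Each of the 3 heavy chain genes also carries a microRNA in an intron, a trio known for acting on the balance of slow and fast muscle genes. The mature sequences are shown, from RefSeq on GRCm38.p6, because they are the part of these loci that the poly(A) counts do not follow. Capitals mark the seed, bases 2 to 8. miR-208a-3p lies in intron 29 of Myh6 (chr14:54949072-54949093, minus strand), miR-208b-3p in intron 31 of Myh7 (chr14:54975710-54975731, minus strand) and miR-499-5p in intron 19 of Myh7b (chr2:155622893-155622913, plus strand).
miR-208a-3p: aUAAGACGagcaaaaagcuugu
miR-208b-3p: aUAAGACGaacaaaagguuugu
miR-499-5p: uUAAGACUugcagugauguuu
The first 2 share the seed UAAGACG, and miR-499-5p has UAAGACU. The microRNA genes themselves had next to no counts, with 3 in all 12 libraries for Mir208a, 2 for Mir208b and 0 for Mir499.

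Library totals ran from 169359 to 710868 counts, so 3 counts, the limit that a count of 0 allows, stood for 4.22 to 17.7 counts per 1000000 of the library total. Levels below are CPM, counts per 1000000 after TMM scaling between libraries. The 5 genes together took between 2.50% and 3.62% of a library. Rpl3l, the targeted gene, had 89, 125 and 83 counts in WT Input and 18, 7 and 9 in KO Input, and 182, 158 and 156 in WT IP against 1, 2 and 5 in KO IP. Of 11 ventricular cardiomyocyte markers, 3 of them members, Actc1, the main actin of adult heart, was listed at 0 in every library, and the other 10 had counts. Markers of atrial cardiomyocytes summed to 7473 to 9586 CPM in WT Input and 9058 to 12842 in KO Input, but to 1187 to 1875 in WT IP and 952 to 1657 in KO IP. None of the 10 atrial markers was at 0 throughout. KO Input replicate 3 is the shallowest library and stands apart in Myh7, so Myh7 results are also given without it where it enters them.

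The light chains were the most abundant of the 5 transcripts. Compared between genes as CPM per kilobase of transcript, WT Input held 17019 ± 1034 for Myl2, 11598 ± 549 for Myl3, 1466 ± 108 for Myh6, 60.3 ± 3.80 for Myh7 and 37.2 ± 4.35 for Myh7b (mean ± SD, n = 3). No neighbours in that order overlapped between libraries in WT Input. Myl2 stood 1.47-fold above Myl3, Myl3 7.91-fold above Myh6, and Myh6 24.3-fold above Myh7 per kilobase. The order was the same by mean in WT IP and KO IP. In KO Input Myh7b (mean 38.3 CPM per kilobase, from 30.4 to 48.1) came before Myh7 (mean 35.2, from 2.74 to 57.5), with overlapping libraries and with Myh7 drawn down by replicate 3. Myh7 and Myh7b also overlapped in KO IP, at 31.1 ± 14.5 and 18.8 ± 4.29 CPM per kilobase. A nanopore cDNA read can span a whole transcript, and without division by length the order of the means was kept in 40 of 40 gene pairs over the 4 groups, but Myl3 then stood 1.21-fold above Myh6 in WT Input and 1.12-fold above it in KO IP, where the libraries of the 2 genes overlapped.

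**Figure D1:**
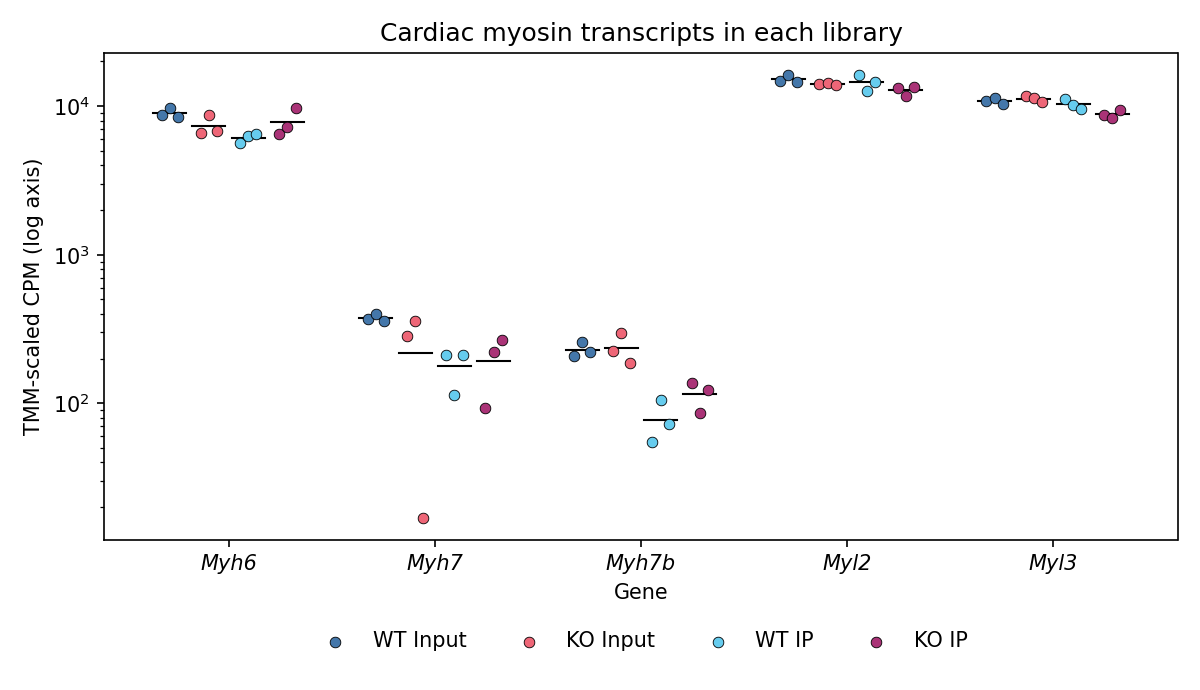
TMM-scaled CPM (log axis) of the 5 genes in each of the 12 libraries, with 1 point per library and a black bar at the mean of 3. Myl2 and Myl3 sit together near the top, Myh6 just under them and Myh7 and Myh7b far lower, with Myh7 at 17.0 CPM in KO Input replicate 3.

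Myh7b was lower on pulled-down ribosomes than in total RNA in both genotypes, the member of the 5 called in each. In WT Input its level was 207, 259 and 222 CPM and in WT IP 54.8, 105 and 72.2 CPM, from 83, 105 and 66 against 37, 61 and 41 counts. In KO Input it was 225, 297 and 188 CPM and in KO IP 138, 86.3 and 123 CPM, from 59, 77 and 33 against 59, 66 and 74 counts. Every IP library of a genotype lay below every Input library of that genotype. The log2 fold change of IP against Input was -1.58 in WT (SE 0.23, adjusted p 3.05e-05, a 2.99-fold lower level) and -1.07 in KO (SE 0.24, adjusted p 0.00233, 2.10-fold lower) by edgeR. Among all tested genes 5.46% were called lower in IP in both genotypes. The Myh7b value lay at the 2.51 percentile of the log2 fold changes of the 6596 tested genes in WT and at the 7.82 percentile in KO. The call held in 16 of 16 other tests in WT (adjusted p at most 0.00135) and in 16 of 16 in KO (at most 0.0386). In bulk tissue, fewer cells of a type among those pulled down and less ribosome-bound RNA per cell cannot be told apart. Atrial markers fell alongside, with 7 of 10 lower in IP in each genotype and a median log2 fold change of -3.16 in WT and -3.21 in KO, where 8.67% of all tested genes were called lower in WT and 9.78% in KO. Of 3 tested adipocyte markers 2 were called lower in WT and 3 in KO. Of 5 tested endothelial markers 1 was called lower in WT and 3 in KO (Cav1 at 0 throughout). Of 7 fibroblast markers 0 were called lower in WT and 2 in KO, while their median log2 fold change was 0.32 in both genotypes. Of 5 tested macrophage markers none was called either way, with medians of 0.24 in WT and 0.01 in KO. Ventricular cardiomyocyte markers, 9 tested and 3 of them members, had 1 called lower in WT (Myh6) and 0 in KO. Higher in IP were 0 of these 9 in WT and 2 in KO, with medians of 0.00 in WT and 0.06 in KO. Fabp4 is on both the adipocyte and the endothelial list. The endothelial log2 fold changes ran from -1.97 to 0.39 in WT and from -1.79 to 0.35 in KO. Adipocyte markers summed to 1588 to 2925 CPM in WT Input and 1074 to 1617 in WT IP. The part of these markers in the Myh7b result was not tested.

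Myh6 was lower in IP than in Input in WT hearts, by a margin close to the threshold. It stood at 8752, 9704 and 8434 CPM in WT Input and at 5627, 6317 and 6490.2 CPM in WT IP. The groups did not overlap, and the log2 fold change was -0.54 (SE 0.18, adjusted p 0.0479). In KO hearts Myh6 was 6573, 8755 and 6836 CPM in Input and 6529, 7243 and 9797 CPM in IP, groups that overlap, and edgeR gave 0.09 on the log2 scale (SE 0.18, adjusted p 0.798). The difference between these fraction effects was 0.63 on the log2 scale (SE 0.26, unadjusted p 0.0223, adjusted p 0.624) and did not pass. The WT call was lost without any single one of the 6 WT libraries (adjusted p 0.0766 to 0.192) and in 10 of 16 other tests in all, with the value between -0.75 and -0.46.

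Myh7, the beta heavy chain, had 369, 402 and 356 CPM in WT Input and 210, 113 and 213 CPM in WT IP. All 3 IP libraries lay below the 3 Input libraries, and the log2 fold change of -1.07 (SE 0.38, adjusted p 0.0603) missed the threshold. The fit shares 1 spread per gene over 12 libraries, and with only the 6 WT libraries the value was again -1.07, with SE 0.19 and adjusted p 0.000261. It passed in 4 of 16 other tests. In KO Input it had 282, 358 and 17.0 CPM and in KO IP 93.3, 220 and 268 CPM, which overlap, and the fitted difference was -0.23 on the log2 scale (SE 0.41, adjusted p 0.765). Without KO Input replicate 3 the KO value was -0.69 (adjusted p 0.134).

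The light chains differed little between fractions. Myl2 was 14709, 16185 and 14496 CPM in WT Input and 16095, 12626 and 14655 CPM in WT IP, which edgeR put at -0.07 on the log2 scale (SE 0.17, adjusted p 0.845). Myl3 was 10798, 11413 and 10392 CPM in WT Input and 11213, 10226 and 9644 CPM in WT IP, again with -0.07 (SE 0.16, adjusted p 0.830). For both genes the fractions overlapped in WT. In KO hearts the IP libraries lay below the Input libraries for both, without passing. Myl2 went from 14208, 14287 and 13962 to 13185, 11626 and 13465 CPM (log2 fold change -0.15, SE 0.17, adjusted p 0.606). Myl3 went from 11721, 11336 and 10717 to 8763, 8375 and 9356 CPM (-0.35, SE 0.16, unadjusted p 0.0434, adjusted p 0.156), and it passed with DESeq2 (adjusted p 0.0229) and limma-voom (0.0137).

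Counted together, 2 of the 5 genes passed in WT, both lower in IP, where 14.0% of all tested genes passed (8.67% lower). In KO 1 of 5 passed, also lower, where 16.4% passed (9.78% lower). Groups did not overlap for 3 of the 5 in WT (Myh6, Myh7 and Myh7b lower) and for 3 of the 5 in KO (Myh7b, Myl2 and Myl3 lower), against 34.6% and 30.8% of all tested genes, or 18.2% and 15.6% counting those lower in IP. The median log2 fold change of the 5 was -0.54 in WT and -0.23 in KO, beside 0.02 and 0.01 over all tested genes. Fold changes between fractions moved with transcript length over all tested genes. At the length of Myh6 the trend stood at 0.21 in WT and 0.31 in KO, and at that of Myl2 at -0.47 and -0.52. Relative to genes of their own length, the light chains were thus at 0.41 (Myl2) and 0.39 (Myl3) in WT and 0.37 and 0.15 in KO, and Myh7b at -1.79 and -1.38.

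**Figure D2:**
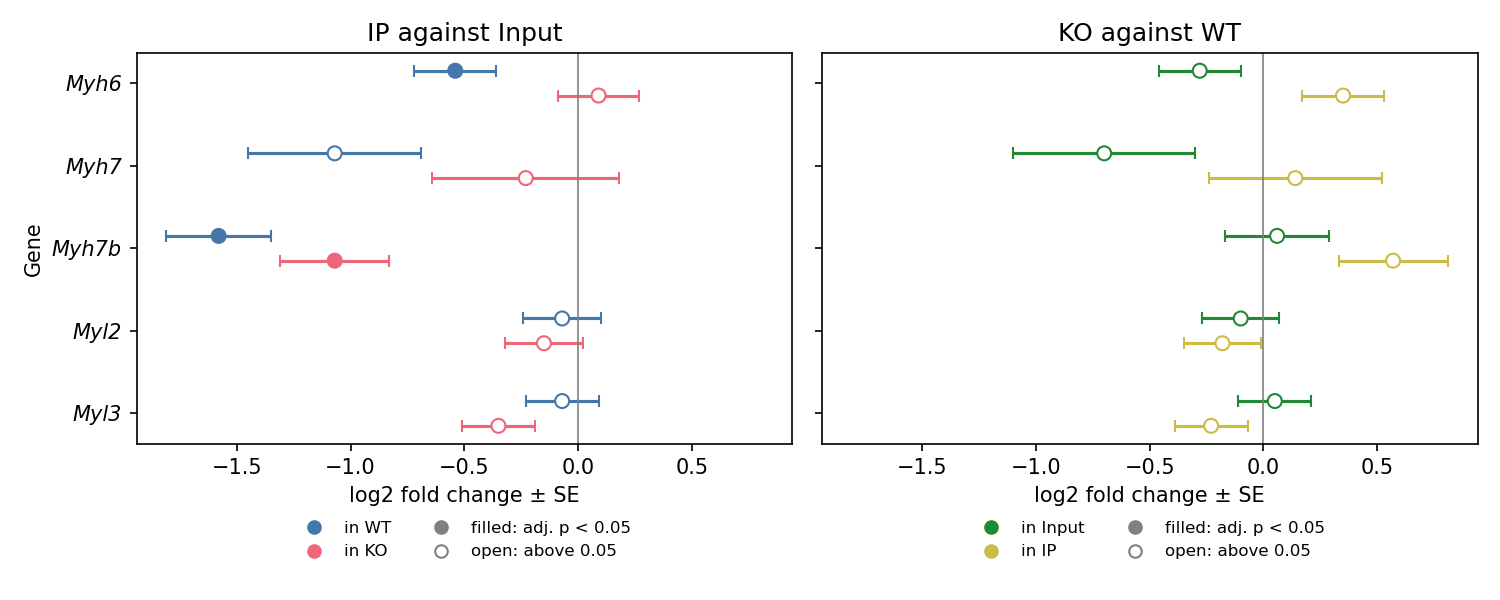
Log2 fold change with its standard error for each gene, IP against Input in the left panel (WT and KO) and KO against WT in the right panel (Input and IP), from edgeR over 12 libraries. Filled points, which passed at an adjusted p of 0.05, are Myh7b in both genotypes (-1.58 and -1.07) and Myh6 in WT (-0.54), and all points of the right panel are open.

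No member passed between KO and WT hearts, in total RNA or on ribosomes. Erythroid markers, none of the 5 called, had a median log2 fold change of -1.19 in Input and -1.17 in IP, and summed to 18276 to 165732 CPM in WT Input and 16718 to 47594 in KO Input. In Input 0 of the 5 myosin genes passed, beside 0.182% of all tested genes, and 0 of these 5 had an unadjusted p under 0.05, beside 7.11%. DESeq2 and limma-voom also called 0 of the 5 myosin genes. On the log2 scale Myh6 differed by -0.28 (SE 0.18), Myh7b of 0.06 (SE 0.23), Myl2 of -0.10 (SE 0.17) and Myl3 of 0.05 (SE 0.16), and adjusted p values were 0.754 or higher for all 5. For Myl2 alone the groups did not overlap, with all KO Input libraries below all WT Input libraries by a small step (13962 to 14287 against 14496 to 16185 CPM), where 12.4% of tested genes did not overlap. Myh7 had -0.70 (SE 0.40), a value that rests on 1 library. KO Input replicate 3 held 3 Myh7 counts, where the share seen in KO Input replicates 1 and 2 would give 48.7. Without it the log2 fold change was -0.23 (adjusted p 0.952).

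On ribosomes, 0 of 5 passed between genotypes, beside 0.0910% of tested genes, and again 0 with DESeq2 and limma-voom. Only Myh7b had an unadjusted p under 0.05, as 5.20% of tested genes did (0.57 on the log2 scale, SE 0.24, unadjusted p 0.0256, adjusted p 0.920), with overlapping groups. Myh6 was higher in every KO IP library than in any WT IP library, by as little as 6529 against 6490.2 CPM (log2 fold change 0.35, SE 0.18, adjusted p 0.949). Myl3 was lower in every KO IP library, with 8375 to 9356 CPM against 9644 to 11213 (-0.23, SE 0.16, adjusted p 0.983). In this comparison 10.8% of tested genes did not overlap. Myl2 (-0.18, SE 0.17) and Myh7 (0.14, SE 0.38) overlapped between genotypes. In the test of the change in the IP to Input ratio 0 of 5 passed (0.0910% of tested genes), and Myh6 alone had an unadjusted p under 0.05, beside 7.02% of tested genes. With library totals in place of TMM, the median over all tested genes stood at 0.15 for IP against Input in KO, at 0.10 in WT and at 0.12 for KO against WT in IP, the size of several of these values.

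The ratio of Myh7 to Myh6, the usual index of a shift between the slow and the fast heavy chain, needs no scaling between libraries. In WT Input there were 4.22, 4.14 and 4.22 Myh7 counts per 100 Myh6 counts, and in KO Input 4.29, 4.09 and 0.249. In WT IP there were 3.74, 1.79 and 3.28, and in KO IP 1.43, 3.03 and 2.73. Thus 5 Input libraries lay within 4.09 to 4.29, a spread (SD 0.0759) well inside the counting error of each, and all 6 IP libraries lay below them with a wider spread (2.67 ± 0.890, SD, n = 6). The sixth, KO Input replicate 3, had 3 Myh7 against 1203 Myh6 counts, so that Myh7 made up 0.249% of the pair's counts (exact 95% interval 0.0513% to 0.725%, counting error only), against 4.11% (3.24% to 5.13%) in KO Input replicate 1.

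Between genotypes the Myh7 to Myh6 ratio did not differ beyond the spread of the libraries. The difference of KO from WT in log2 ratio, averaged over the fractions, was -0.76 (exact two-sided permutation p 0.230 over 400 arrangements, adjusted p 0.654 over 6 ratio tests), and -0.14 without KO Input replicate 3 (exact permutation p 0.455). In IP alone the means were 2.94 ± 1.02 in WT and 2.40 ± 0.853 in KO per 100 Myh6 counts (SD, n = 3), and the libraries overlapped. Between fractions the log2 ratio differed by -0.12 (exact permutation p 0.905, adjusted p 0.905) with every library. Without KO Input replicate 3 the difference was -0.73, a ratio in IP of 0.604 times that in Input (exact permutation p 0.0100, adjusted p 0.0600, where 0.00500 is the smallest p possible). That library was singled out for its Myh7 value, so this p is not independent of the choice. Leaving out any other single library gave adjusted p 0.795 or higher by the same permutation test. In WT alone the IP libraries did not overlap with the Input libraries, at the smallest exact p that 3 against 3 allow, 0.10.

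**Figure D3:**
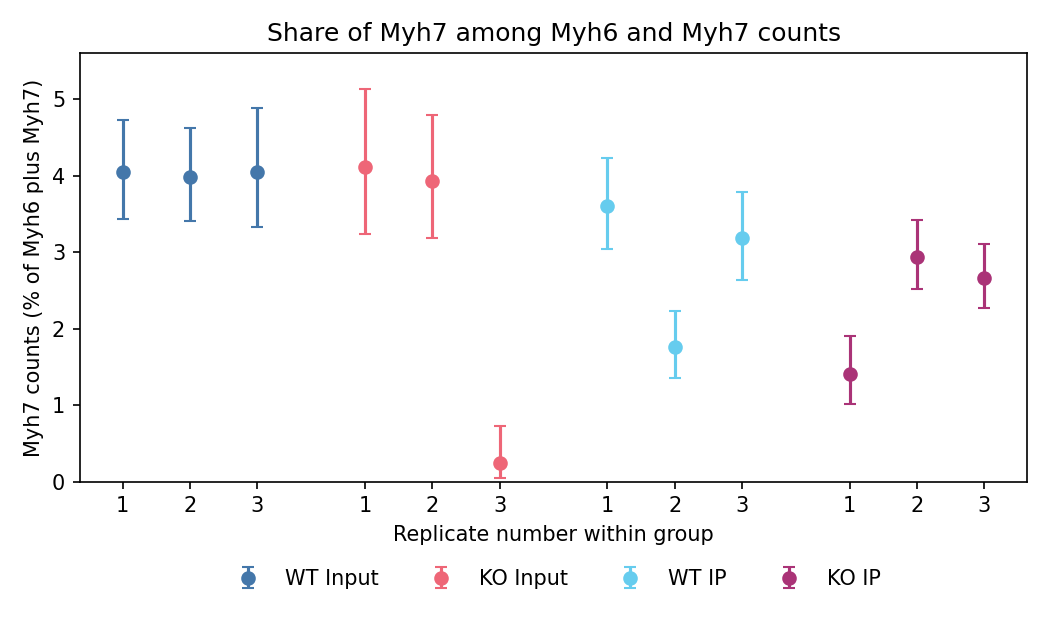
Myh7 counts as a percent of Myh6 plus Myh7 counts in each library, with exact 95% binomial intervals that cover counting error only. In 5 Input libraries Myh7 sits at 3.93% to 4.11%, KO Input replicate 3 at 0.249%, and the 6 IP libraries between 1.41% and 3.60%.

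Such a gap in 1 library was rare among genes of this level. Of 1338 tested genes with at least 100 CPM in both other KO Input libraries, 4 were below 10% of the lower of these in KO Input replicate 3, namely Myh7, Ndufs1, Gm9800 and Gm14121 (0.299%). The other 11 libraries had between 0 and 2 such genes. Ndufs1, which encodes a core subunit of respiratory complex I, had 30, 32 and 2 counts in the KO Input libraries. Profiles over the libraries were compared by the root mean square difference of centred log2 CPM, among 3029 genes of at least 50 CPM. Over 12 libraries Ndufs1 was the gene closest to Myh7 (0.48), a likeness that holds the shared low value of KO Input replicate 3. Without that library it came 18th (0.33), and the closest were Atp2c1 (0.22), Slc25a5 (0.24) and Zfp36l1 (0.25).

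The ratio of the regulatory to the essential light chain stood between 1.21 and 1.52 in the 12 libraries. Myl2 to Myl3 was 1.36, 1.42 and 1.39 in WT Input and 1.21, 1.26 and 1.30 in KO Input. It was 1.44, 1.23 and 1.52 in WT IP and 1.5, 1.39 and 1.44 in KO IP. In Input every KO library lay below every WT library (log2 difference -0.15, exact permutation p 0.10, the smallest possible), and in IP they overlapped (0.05, exact permutation p 0.800). Over both fractions the genotype difference was -0.05 (exact permutation p 0.460, adjusted p 0.654) and the difference of IP from Input 0.10 (exact permutation p 0.130, adjusted p 0.654). The latter passed without WT IP replicate 2, at 0.14 with adjusted p 0.0300. Over the 12 libraries the profiles of Myl2 and Myl3 differed by a root mean square of 0.10 on the log2 scale, and each was among the 3 genes closest to the other. Both genes varied little, with a root mean square of 0.13 (Myl2) and 0.15 (Myl3) from their own means. Other genes lay about as close, such as Dcaf8 to Myl2 (0.11) and Chmp2a to Myl3 (0.10). The Myh6 profile lay 0.27 from Myl2 and 0.29 from Myl3, that of Myh7b 0.60 from Myh6, and that of Myh7 1.05 to 1.25 from each of the others, or 0.50 to 0.66 without KO Input replicate 3. By the same measure the genes closest to Myh7b were Chchd7 (0.21), Nenf (0.27) and Ogt (0.30), and those closest to Myh6 were Hmgb1 (0.16), Ktn1 (0.17) and Ubb (0.18).

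Light chain counts per heavy chain count had a higher mean in IP than in Input in WT and a lower mean in IP in KO. In WT Input there were 2.73, 2.66 and 2.76 light chain counts (Myl2 plus Myl3) per heavy chain count (Myh6, Myh7 and Myh7b), and in WT IP 4.64, 3.50 and 3.59. In KO Input there were 3.66, 2.72 and 3.51, and in KO IP 3.25, 2.65 and 2.24. The WT fractions did not overlap (log2 difference 0.51, exact permutation p 0.10, the smallest possible), and the KO fractions did (-0.29, exact permutation p 0.200). Within IP, every KO library lay below every WT library (-0.53, exact permutation p 0.10), and within Input the genotypes overlapped (0.27, exact permutation p 0.300). Pooled over the other factor, neither the genotype difference (-0.13, exact permutation p 0.435) nor the fraction difference (0.11, exact permutation p 0.545) passed, with adjusted p 0.654 for both. The difference between the fraction effects of this ratio was not itself tested. Heavy chain transcripts are several times as long as light chain transcripts, and the fold changes between fractions moved with length as given above.

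**Figure D4:**
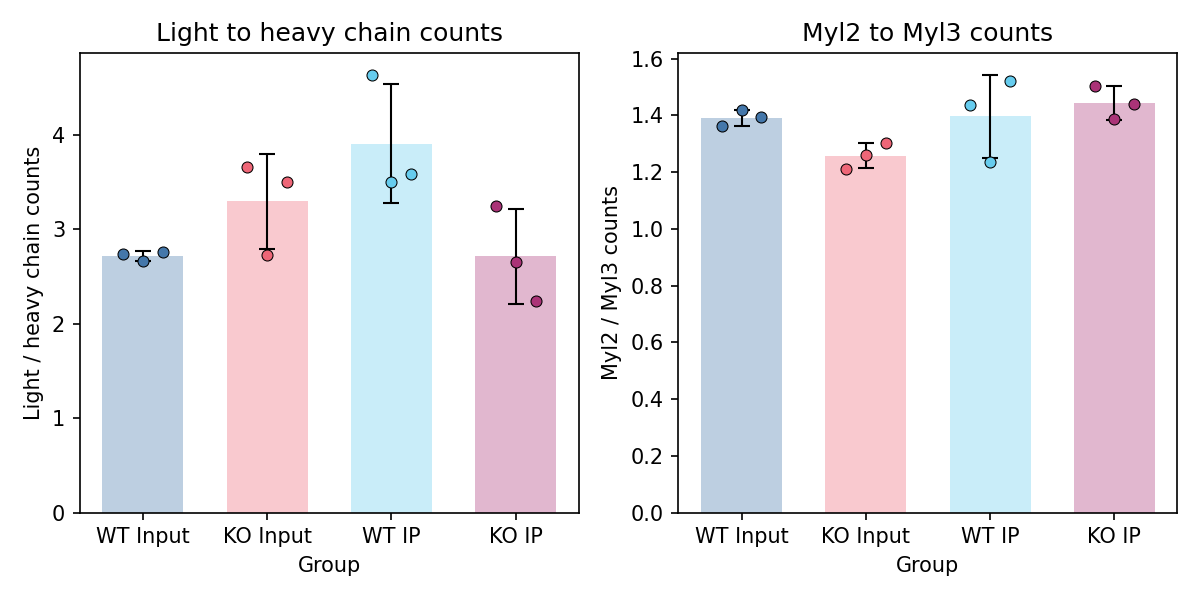
Light to heavy chain counts (left) and Myl2 to Myl3 counts (right) per library, with bars at the mean of 3 libraries and error bars of 1 SD. WT IP has the highest mean in the left panel (3.91) though its libraries (3.50 to 4.64) overlap with KO Input (2.72 to 3.66), WT Input is the tightest group (2.66 to 2.76), and KO Input has the lowest mean in the right panel (1.21 to 1.30).

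Partners of the thick filament changed in both directions between fractions. Of 13 tested thick filament and M-band partners, 1 was higher and 1 lower in WT IP, and 4 were higher and 3 lower in KO IP, with medians of 0.08 and 0.23. Over all tested genes 5.37% were called higher and 8.67% lower in WT IP, and 6.64% and 9.78% in KO IP. Mybpc3, cardiac myosin binding protein C, rose in WT IP, from 1388, 1349 and 1468 CPM to 3508, 3272 and 2509 CPM (log2 fold change 1.14, SE 0.17, adjusted p 3.15e-05). It also rose in KO IP, from 1672, 1672 and 1813 CPM to 3001, 2619 and 2063 CPM (0.58, SE 0.17, adjusted p 0.0207), and the difference between the genotypes in this change did not pass (-0.57, SE 0.24, adjusted p 0.653). Mylk3, the cardiac kinase that phosphorylates the regulatory light chain, rose in KO IP (0.73, SE 0.16, adjusted p 0.00296), with 0.31 in WT (adjusted p 0.209). The related kinase Mylk4 rose in KO IP (1.05, SE 0.27, adjusted p 0.00710), with 0.63 in WT (adjusted p 0.0694). Mybphl, an atrial relative of Mybpc3 that is also on the atrial marker list, fell in both genotypes (-3.24 in WT and -3.29 in KO, adjusted p 0.000221 and 0.000302). Smpx, a small muscle protein of the costamere, fell in KO IP (-0.70, SE 0.16, adjusted p 0.00239), with -0.20 in WT (adjusted p 0.426). The interaction of genotype and fraction passed for none of the tested genes of the 6 lists of partners, other myosins, folding factors and regulators described here, so a call in 1 genotype alone does not show a difference between genotypes. None of these 13 genes passed between genotypes in either fraction, beside 0.182% of tested genes in Input and 0.0910% in IP. Among these 13 Myom2, an M-band protein, came closest, in IP (0.68, SE 0.16, adjusted p 0.143).

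Of 21 tested thin filament and Z-disc genes, 1 was higher and 2 lower in WT IP and 2 were higher and 4 lower in KO IP. Over all tested genes the shares were 5.37% higher and 8.67% lower in WT IP, and 6.64% and 9.78% in KO IP. The leiomodin Lmod2, which lengthens thin filaments, fell in both (-0.87 in WT, adjusted p 0.000521, and -1.29 in KO, adjusted p 5.57e-06), as did the Z-disc gene Myoz2 (-0.80, adjusted p 0.00111, and -0.60, adjusted p 0.0121). Tnnt2, cardiac troponin T, rose in KO IP (0.64, SE 0.19, adjusted p 0.0244), with 0.32 in WT (adjusted p 0.286). Pdlim5, a Z-disc scaffold, rose in WT IP (0.74, SE 0.18, adjusted p 0.00597), with 0.25 in KO (adjusted p 0.390). None of the 21 passed between genotypes, beside 0.182% of tested genes in Input and 0.0910% in IP.

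Of 5 other striated myosin genes tested, 3 fell in each genotype and none rose. Among all tested genes 8.67% fell in WT IP and 9.78% in KO IP. None of the 5 passed between genotypes, beside 0.182% of tested genes in Input and 0.0910% in IP. Myl4, the atrial essential light chain, went from 1346, 1608 and 1995 CPM in WT Input to 57.7, 101 and 243 CPM in WT IP (log2 fold change -3.64, SE 0.39, adjusted p 2.91e-07), and fell by 3.56 on the log2 scale in KO (adjusted p 4.43e-07). Myl7, the atrial regulatory light chain, fell by 3.07 in WT (adjusted p 1.04e-06) and by 3.14 in KO (adjusted p 8.09e-07). Both are also on the atrial marker list. Myh8, annotated as a perinatal skeletal heavy chain, was listed at 857, 930 and 1176 CPM in WT Input and 385, 665 and 595 in WT IP, above Myh7 in each of these libraries. Myh8 fell in WT IP (-0.85, SE 0.24, adjusted p 0.0201), with -0.67 in KO (adjusted p 0.0603). In KO Input it had 1199.6, 1479 and 1539.9 CPM and in KO IP 1148, 466 and 1054. Between KO and WT it differed by 0.51 in Input (SE 0.24, unadjusted p 0.0456, adjusted p 0.687) and by 0.69 in IP (SE 0.24, unadjusted p 0.00819, adjusted p 0.826). Its coding sequence was identical to that of Myh6 at 77.5% of aligned bases, and the sources used here do not say whether its reads were told apart from those of the cardiac heavy chains. The third gene lower in KO IP was Myl1, a light chain of fast skeletal muscle and atrium (-2.13, SE 0.34, adjusted p 9.07e-05), with -0.90 in WT (adjusted p 0.0663).

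Of 9 tested smooth and non-muscle myosin genes, 1 was higher and 3 lower in WT IP and 1 was higher and 4 lower in KO IP. The shares over all tested genes were 5.37% higher and 8.67% lower in WT, and 6.64% and 9.78% in KO. Myl6, the common non-muscle light chain, fell in both (-1.61 in WT, adjusted p 0.000152, and -1.40 in KO, adjusted p 0.000782), as did Myl9, the smooth muscle regulatory light chain (-1.64, adjusted p 0.00840, and -2.39, adjusted p 0.000148). Ppp1r12b, the heart-enriched targeting subunit of myosin phosphatase, rose in both (1.43, adjusted p 4.16e-05, and 1.18, adjusted p 0.000662). Smooth muscle markers, of which 3 of 5 were tested, had 1 lower in each genotype, and summed to 205 to 359 CPM in WT Input and 110 to 236 CPM in WT IP.

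Among 8 tested myosin folding factors, 1 was higher in WT IP and 2 in KO IP, and none was lower. Higher in IP were 5.37% of all tested genes in WT and 6.64% in KO, and lower were 8.67% and 9.78%. Smyd1, a muscle methyltransferase needed for thick filament assembly, rose in both (0.88 in WT, adjusted p 0.000548, and 1.38 in KO, adjusted p 4.27e-06), and the chaperone Hsp90ab1 rose in KO IP (0.86, SE 0.17, adjusted p 0.000709), with 0.41 in WT (adjusted p 0.0929). Among 21 tested regulators of myosin gene transcription, 3 were higher in WT IP and 5 in KO IP, and none was lower. Srf, the serum response factor, rose in both (1.66 in WT, adjusted p 0.000763, and 1.20 in KO, adjusted p 0.0146), as did Tead1, which binds the M-CAT elements of myosin promoters (0.88 and 0.88, adjusted p 0.00892 and 0.0135). The T-box factor Tbx20 rose in WT IP (0.83, adjusted p 0.0343), with -0.24 in KO (adjusted p 0.584). Myocd, the SRF coactivator, rose in KO IP (2.83, SE 0.63, adjusted p 0.00263), with -0.31 in WT (adjusted p 0.720). Its mean was 11.5 CPM (SD 13.7) in KO Input and 90.5 CPM (SD 48.5) in KO IP. By library total, 3 counts stood for 10.3, 10.4 and 17.7 CPM in the KO Input libraries. The size of this rise thus rests on a KO Input level near the detection limit. Smarca4, the BRG1 chromatin remodeler, rose in KO IP (1.18, adjusted p 0.0154), with 0.54 in WT (adjusted p 0.212). Neither list had a member past the threshold between genotypes, beside 0.182% of tested genes in Input and 0.0910% in IP. The regulators with the smallest p between KO and WT were Tbx20 (0.91, SE 0.29, adjusted p 0.414) and Myocd (-1.94, SE 0.70, adjusted p 0.526) in Input. The Myocd value in Input rests on the same low KO Input level. In IP they were Myocd (1.20, SE 0.42, adjusted p 0.827) and Thra, a thyroid hormone receptor that acts on both Myh6 and Myh7 (0.55, SE 0.22, adjusted p 0.920).

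Mhrt, a long noncoding RNA transcribed from the opposite strand, overlaps 3666 bases of the Myh7 gene (chr14:54968678-54974349, plus strand). It had 4, 8 and 4 counts in WT Input, 1, 1 and 0 in KO Input, 0, 3 and 3 in WT IP and 1, 1 and 1 in KO IP, too few to pass the filter. The sources used here do not state whether counting used strand, so reads of Mhrt and of Myh7 over the overlap may not be separated.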

How the data were processed

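The authors deposited 1 whole-number count per gene and library, with no normalization. Per the submitters' processing notes, minimap2 2.14, DESeq2 1.34.0 and the build GRCm38 were used. The counting tool, annotation and read filters are not given in the sources used here. Gene IDs were matched to GENCODE M21 without version (55141 of 55401), and 38803 genes were 0 in every library. Counts were tested with edgeR 4.0.16 (R 4.3.3, quasi-likelihood, filterByExpr with minimum count 10 and total 15, TMM scaling, 1 mean per group, all 12 libraries). Common dispersion was 0.0333. The SE of an edgeR value is its absolute log2 fold change divided by the square root of the quasi-likelihood F statistic. Benjamini-Hochberg adjustment ran over the 6596 tested genes of each of 5 contrasts, threshold 0.05. Ratios were compared as log2 of counts plus 1 by exact permutation within fraction or genotype (scipy 1.17.1). Intervals are exact 95% binomial. Alternatives used DESeq2 1.42.0, limma 3.58.1, other scalings and filters, a loess trend with length (span 0.5), and libraries left out. Fits were checked on simulated data. Genes of the fixed lists were named by smallest p (up to 4 past the threshold, otherwise up to 2), with some of those described in full. Profile likeness used log2 CPM (prior count 2), and its values without KO Input replicate 3 were chosen after seeing the data. The members and lists were chosen with earlier results of these data known. Replicates are biological, per the series' design text.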

Additional observations from a re-analysis of the deposited data

How the results depend on the processing

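Of the calls, the lower level of Myh7b in IP held under every alternative with a test in both genotypes, with log2 fold changes from -1.86 to -1.36 in WT and from -1.19 to -0.86 in KO. With the length trend removed, which has no test, the values were -1.79 and -1.38. The number of the 5 genes called in WT (IP against Input) was 2, and it fell to 1 with DESeq2 size factors, with library totals, with the replicate block and without any 1 of the 6 WT libraries (1 to 1), as Myh6 lost its call. It rose to 3, with Myh7, under a filter of 30 counts in 3 libraries, with only the compared libraries and without replicate 3 of both KO Input and WT Input. With no count filter it was 2, with Myh7 in place of Myh6. In KO the number rose from 1 to 2 with DESeq2 and with limma-voom, through Myl3. None of the 5 was called between genotypes under any alternative. Correlations of same-numbered libraries, after centring within each group, ran from -0.115 to 0.0423, and in 0 of 18 cases was the own number the best match. With 3 libraries per group at this depth, these correlations cannot show whether Input and IP came from the same hearts. With the replicate block, Myh6 in WT had adjusted p 0.0525, and all other calls among the members were kept. For the Myh7 to Myh6 log2 ratio, pairing by number cannot change the mean difference between fractions, which stays at -0.12. Only the p could change, and the adjusted p of the exact permutation test was 0.905 without pairing and 0.844 with it.

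Signs turned for values that did not pass. Between fractions in WT, Myl2 was at 0.03 and Myl3 at 0.02 with library totals, both at 0.01 with no filter and at 0.41 and 0.39 with the length trend removed, and Myl2 ran from -0.13 to 0.03 with 1 library left out. In KO, removal of the trend gave -0.22 for Myh6, 0.37 for Myl2 and 0.15 for Myl3, and limma-voom gave 0.27 for Myh7. Leaving out 1 library took Myh6 from -0.09 to 0.23 and Myh7 from -0.69 to 0.26. Between genotypes, leaving out 1 library took Myh7b in Input from -0.15 to 0.18 and Myh7 in IP from -0.14 to 0.44. The fraction difference of the Myh7 to Myh6 log2 ratio ran from -0.73 to 0.20 with 1 library left out and was 0.35 in KO alone. That of Myl2 to Myl3 ran from 0.07 to 0.14 and was -0.00 in WT alone, and its genotype difference was 0.05 in IP alone. That of light to heavy chains was -0.29 in KO alone, and its genotype difference 0.27 in Input alone. The cause of these changes was not tested. At the depth of KO Input replicate 3, a gene at 0 could lie at up to 17.7 counts per 1000000 of the library total, and in KO Input replicate 1 a Myh7 share of 4.11% had an interval of 3.24% to 5.13%, so smaller shifts were not detectable there.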
